A study of Mus musculus with 6 samples.

Results

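The cytoplasmic ribosomal proteins of the mouse were followed in leukaemia-like cells after UNC0638. Rows of the deposited array table were taken where the probe annotation gives a symbol made of Rpl or Rps and a number, with an optional a, x or l, or Rplp0, Rplp1, Rplp2 or Rpsa. S6 kinase genes (Rps6k) and pseudogenes were left out. This gave 394 of 34760 rows. Of these, 191 name 1 gene and 203 name several, and the 2 kinds were kept apart because a row naming several genes cannot be assigned to one of them. The single-gene rows stand for 59 of the 19937 genes tested. A further 16 member symbols, Rpl3, Rpl11 and Rpl13a among them, occur only in rows with several genes. Rps27a had no row that could be analysed here.

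Gene expression had been measured in haematopoietic stem and progenitor cells transformed by HoxA9 and Meis1, given UNC0638 (3 samples) or the solvent DMSO (3 samples) for 5 days, with 1 array for each sample. UNC0638 blocks G9a and GLP, enzymes that methylate histone H3. All 6 samples carried HoxA9 and Meis1 and grew in serum with stem cell factor, interleukin-3 and interleukin-6. The dose is not in the labels, which also do not say whether the numbered samples were separate cultures, so a p-value here reflects only how far these samples scatter, and that scatter may be technical. Values are processed intensities on a linear scale, and their number limits the precision. Array medians were 52.7 to 54.9 in UNC0638 and 50.4 to 52.5 in DMSO. The 10 markers of myeloid progenitors, such as Kit, Cd34 and Mpo, had mean intensities of 222 to 6322 in UNC0638 and 211 to 6031 in DMSO, with 8 of the 10 above 0 in difference and 0 past the threshold used below. For 4 of them, Csf1r (log2 difference 0.52), Itgam (0.46), Cd34 (0.27) and Ptprc (0.25), every UNC0638 array was above every DMSO array, with limma adjusted p of 0.0709 to 0.215. These names and Pf4 were chosen after their values were seen. The 3 erythroid and 5 lymphoid markers measured lay at 18.9 to 57.4 in UNC0638 and 13.1 to 55.6 in DMSO, near or below the array medians. The 3 megakaryocyte markers lay at 111 to 427 in UNC0638 and 109 to 679 in DMSO, with Pf4 at -0.66, groups apart and a limma adjusted p of 0.164. The 4 stromal markers lay at 17.9 to 109 in UNC0638 and 17.9 to 99.7 in DMSO. Groups were apart, higher in UNC0638, for 4 of 10 myeloid, 2 of 5 lymphoid and 1 of 4 stromal markers, against 9.59% of all genes. On the lower side they were apart for 1 of 3 megakaryocyte markers, Pf4, against 7.4% of all genes. The part of cell state in the results was not tested, and fewer cells of a type and less RNA per cell cannot be told apart in such samples.

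A ribosome joins a small subunit, which reads the messenger RNA, to a large subunit, which forms the peptide bond. Each subunit is made of ribosomal RNA and of ribosomal proteins that are needed in equal numbers, and their mRNAs are among the most abundant of a dividing cell. Many of these mRNAs begin with a terminal oligopyrimidine (TOP) tract, through which LARP1 and the kinase mTORC1 control their translation. Inherited loss of 1 copy of several of these genes causes Diamond-Blackfan anaemia, a failure of red cell production, and loss of RPS14 contributes to the human 5q- syndrome.

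The TOP tract is the best known sequence feature of these mRNAs, so 30 bases around the annotated start are shown for 6 members with such a tract and for 2 without one there. The sequences are from RefSeq, build GRCm38.p6, 15 bases on each side of the start, and capitals mark a run of at least 5 pyrimidines within 3 bases of it.
Rps6 (chr4:86857353-86857382, minus strand): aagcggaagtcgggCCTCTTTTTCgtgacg
Rps9 (chr7:3704026-3704055, plus strand): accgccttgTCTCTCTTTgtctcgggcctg
Rps18 (chr17:33955651-33955680, minus strand): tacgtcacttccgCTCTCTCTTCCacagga
Rpl28 (chr7:4792950-4792979, plus strand): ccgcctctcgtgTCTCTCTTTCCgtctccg
Rpl38 (chr11:114668565-114668594, plus strand): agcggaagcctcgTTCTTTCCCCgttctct
Rplp2 (chr7:141447636-141447665, plus strand): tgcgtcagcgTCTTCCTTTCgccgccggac
Rpsa (chr9:120127751-120127780, plus strand): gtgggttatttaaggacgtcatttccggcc
Rpl3l (chr17:24727811-24727840, plus strand): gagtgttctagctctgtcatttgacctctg
The runs in capitals are 9 to 11 bases long, and Rpsa and Rpl3l have none at the annotated start. Of the 75 member symbols, 60 matched the promoter table, and a gene with several annotated starts was counted once. The letters CTTTC stood on the coding strand within 25 bases of a start in 18 of 60 members (30.0%), against 1246 of 17492 protein-coding genes (7.1%). The letters CCGGAAG, a core bound by ETS factors, were found on either strand of the 300-base window in 25 of 60 members (41.7%), against 12.9% of all genes. CACGTG, the E-box bound by Myc, was found on either strand in 6 of 60 members (10.0%), against 8.9% of all genes, and TATAAA in the 50 bases before the start in 0 of 60, against 3.8%. None of these motifs lies inside another. Such matches describe letters, not bound sites.

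The comparison asked which transcripts differed after 5 days of UNC0638. Among ribosomal protein genes, 0 of 59 passed an adjusted p of 0.05 in limma, against 0.672% of all genes tested (0.301% lower, 0.371% higher). At an unadjusted limma p under 0.05, 8 of the 59 were lower and 1 was higher, against 6.21% and 6.47% of all genes. The differences lay mostly on one side of 0. They were below 0 for 53 of 59 members, against 9186 of 19937 genes (46.1%), and their median on the log2(intensity + 16) scale was -0.12, against 0.012 over all genes. The middle 50% of members ran between -0.21 and -0.070. The pseudocount of 16 makes the change of dim genes look smaller than it was.

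Brightness differed between the members and the rest, since 47 of the 59 were among the 1993 brightest genes. The other 1946 of those genes had a median difference of -0.031, with 56.5% below 0. At an unadjusted limma p under 0.05, 13.5% of those 1946 genes were lower, near the members' 13.6%. For 53 of the 59 members the 95% interval of the difference lay within a 1.5-fold change in either direction. Across all members the intervals spanned -0.77 to 0.47, so a modest change of a single mRNA could have been missed.

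**Figure D1:**
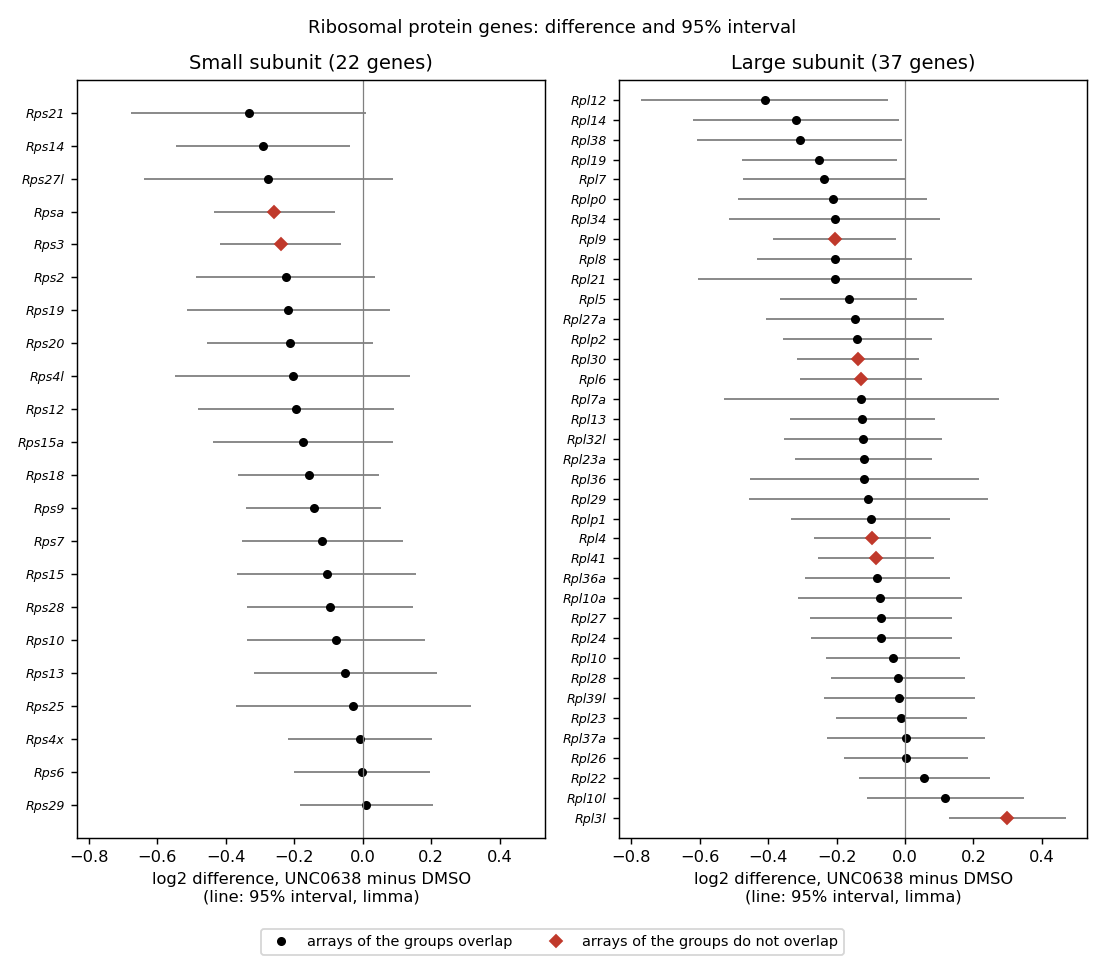
Log2 difference (UNC0638 minus DMSO) of 22 small-subunit and 37 large-subunit genes, with 95% intervals from limma, and diamonds where the groups do not overlap. Most points lie left of 0 and most intervals cross it, and the point farthest to the right is Rpl3l at 0.30.

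The 3 UNC0638 arrays differed in how far the members lay from DMSO. Relative to each gene's DMSO mean, the member median was 0.020, -0.13 and -0.23 on UNC0638 replicates 1, 2 and 3, against 0.041, -0.028 and -0.017 on DMSO replicates 1, 2 and 3. Without rescaling, UNC0638 replicate 1 thus lay among the DMSO arrays, and replicate 3 lay farthest below them. Over all genes these medians stayed between -0.0095 and 0.025 on the UNC0638 arrays and between -0.0081 and 0.0048 on the DMSO arrays. The place of replicate 1 depended on the scaling. With quantile normalization its member median was -0.036, below the DMSO arrays at -0.011 to 0.011. It was -0.012 with cyclic loess and -0.021 with median centring, each within the DMSO range. Replicate 3 stayed the lowest array, at -0.18, -0.17 and -0.26 with quantile normalization, cyclic loess and median centring.

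Gene by gene the same order recurred. UNC0638 replicate 1 was the highest of the 3 UNC0638 arrays for 48 of 59 members (81.4%), against 24.4% of all genes and 33.8% of those 1946 bright genes. Replicate 3 was below every DMSO array for 47 members (79.7%), against 25.4% of all genes, whereas replicate 1 was below every DMSO array for 11 members. The median within-group SD of a member was 0.15 in UNC0638 and 0.094 in DMSO on the log2 scale, against 0.11 in each group over all genes. Without UNC0638 replicate 3 the member median was -0.062, and without replicate 1 it was -0.19. The part of any handling or batch difference in this spread was not tested, and the labels give no batch.

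**Figure D2:**
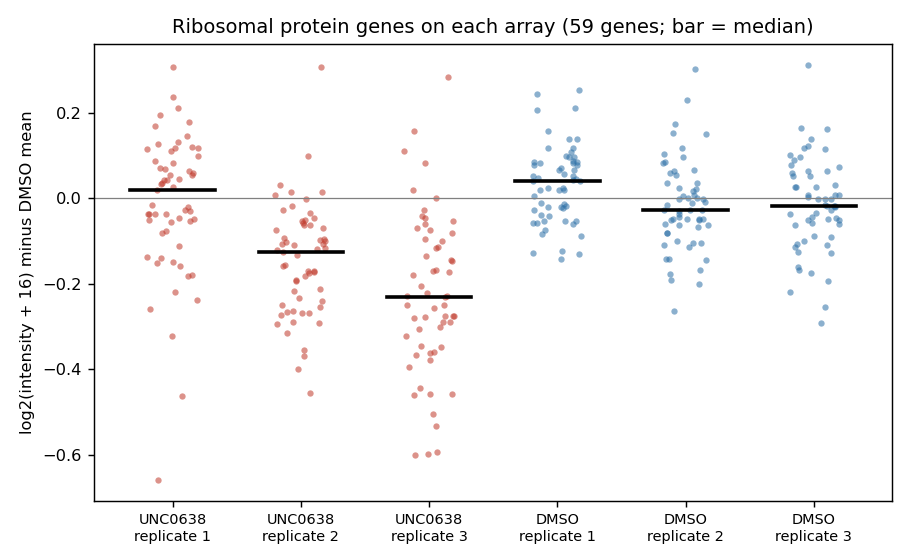
Each point is 1 of 59 ribosomal protein genes on 1 array, as log2(intensity + 16) minus the mean of that gene in DMSO, and bars are medians. The bars stand at 0.020, -0.13 and -0.23 for UNC0638 replicates 1 to 3, against 0.041, -0.028 and -0.017 for DMSO replicates 1 to 3.

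The 22 small-subunit members had a median difference of -0.17, with 21 below 0 and 0 past the threshold. Rpsa encodes a small-subunit protein also known as the laminin receptor. It had intensities of 3862, 3828 and 3727 in UNC0638, against 4722, 4668 and 4287 in DMSO (log2 difference -0.26, SE 0.077, limma adjusted p = 0.201, probe set 10590253). Rps3, at the mRNA entry and also a DNA repair factor, had 3291, 3334 and 3377 in UNC0638, against 4185, 3759 and 3883 in DMSO (log2 difference -0.24, SE 0.077, limma adjusted p = 0.237, probe set 10565802). In both genes every UNC0638 array was below every DMSO array, and the UNC0638 arrays lay close together, unlike most members.

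Groups that do not overlap were found in 7 members on the lower side (11.9%), against 7.4% of all genes and 16.1% of the 1946 bright genes that are no members, and in 1 member on the higher side, against 9.59% of all genes. The members' share was thus below that of these bright genes, whose median mean intensity was 1170, against 5005 for the members. This order depended on the setting. The shares were 20.3% against 12.2% with quantile normalization, 22.03% against 21.8% with median centring and 10.2% against 13.1% with cyclic loess. With the mean of a gene's probe sets they were 18.6% against 16.4%. With fewer arrays groups separate more easily. The count was 33 without UNC0638 replicate 1 (55.9%, against 23.7% of the bright genes) and 20 without DMSO replicate 3 (33.9%, against 22.6%). Without DMSO replicate 2 it was 12 (20.3%, against 24.8%). It was 9 (15.3%) without UNC0638 replicate 2, UNC0638 replicate 3 or DMSO replicate 1, against 19.4%, 24.3% and 18.6% of the bright genes. The other 5 on the lower side belong to the large subunit. They are Rpl9, Rpl30, Rpl6, Rpl4 and Rpl41, which were chosen for description, like Rps3, after their values were seen.

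The largest differences of the small subunit were those of Rps21, Rps14 and Rps27l. Rps21 had 2327, 2389 and 1785 in UNC0638, against 2758, 3185 and 2270.3 in DMSO (log2 difference -0.33, SE 0.15, limma adjusted p = 0.412). Rps14, whose human counterpart is lost in the 5q- syndrome, had 4448, 4058 and 3559 in UNC0638, against 5195, 5203 and 4364 in DMSO (log2 difference -0.29, SE 0.11, limma adjusted p = 0.319). Rps27l, a paralogue of Rps27 known as a target of p53, had 1583, 1245 and 1005 in UNC0638, against 1634, 1346 and 1609.6 in DMSO (log2 difference -0.28, SE 0.16, limma adjusted p = 0.551). In each of these 3 rows the highest UNC0638 array was above the lowest DMSO array, so the groups overlapped. The other single-gene row of Rps14 was at -0.33 with groups apart (limma adjusted p = 0.458). That of Rps21 was at -0.35 with groups that overlapped. Without UNC0638 replicate 3, Rps27l was at -0.12 and Rps21 at -0.20. Rps27l was at -0.44 without UNC0638 replicate 1, and Rps21 at -0.22 without DMSO replicate 2.

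Other small-subunit genes lay at 0. Rps6, the substrate of S6 kinase, had 8638, 8911 and 8984 in UNC0638, against 9145, 8033 and 9480.2 in DMSO (log2 difference -0.0034, 95% interval -0.20 to 0.20). Rps4x, an X-linked subunit gene, was at -0.0081 (95% interval -0.22 to 0.20), and Rps29, the 1 small-subunit member above 0, at 0.011 (95% interval -0.18 to 0.20). The signs of these 3 differences turned under some settings. All 7 single-gene rows of Rps6 lay below 0, the lowest at -0.49, and the row shown is the brightest. Rps19, the gene most often mutated in Diamond-Blackfan anaemia, had 2055, 1903 and 1956 in UNC0638, against 2164, 2832 and 1969 in DMSO. In this row the difference of -0.22 (SE 0.13, limma adjusted p = 0.57) rested on DMSO replicate 2, without which it was -0.066. It was -0.33 without DMSO replicate 3. The 2 rows naming Rps19 with other genes were at -0.29 and -0.27.

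Of 19 members known to be mutated in that anaemia, 9 had a single-gene row. Among them 7 lay below 0 and 0 passed, with a median of -0.096. Of 8 members that line the mRNA channel or the decoding site, 6 had such a row, all 6 lay below 0, and 0 passed, with a median of -0.18.

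The 37 large-subunit members had a median of -0.12, with 32 below 0 and 0 past the threshold. Rpl12, which sits at the base of the stalk that recruits translation factors, was at the lowest difference of all members. Its intensities were 93.6, 110.2 and 144 in UNC0638, against 190.4, 149.8 and 135 in DMSO (log2 difference -0.41, SE 0.16, limma adjusted p = 0.326). UNC0638 replicate 3 overlapped the DMSO arrays in this row, of mean intensity 137, the reverse of the order seen in most members. The 7 rows naming Rpl12 with other genes ran from -0.36 to -0.038, with a median of -0.14. The brightest of them, shared with Gm32899, had 7121, 6749 and 6315 in UNC0638, against 7661, 7150 and 7357 in DMSO (log2 difference -0.14).

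The stalk itself is built of Rplp0, which anchors it, and of Rplp1 and Rplp2. Rplp0 had 4539, 6009.7 and 5786 in UNC0638, against 6796, 6212 and 5813 in DMSO (log2 difference -0.21, SE 0.12, limma adjusted p = 0.544). Rplp2 was at -0.14 and Rplp1 at -0.099 (SE 0.095 and 0.10, limma adjusted p = 0.637 and 0.777). In this row of Rplp0 the difference was carried by UNC0638 replicate 1, without which it was -0.086. Its other single-gene row was at -0.28 with groups apart, at 2862, 3105 and 3005 in UNC0638, against 4091, 3627 and 3209 in DMSO. The 2 rows naming Rplp0 with other genes were at -0.32 and -0.25. In the row of Rplp1 given here the difference was carried by UNC0638 replicate 3, without which it was 0.0015 (-0.16 without UNC0638 replicate 1). The other row of Rplp1 was at -0.27, with groups that overlapped. Rplp2 was at -0.081 without DMSO replicate 2 and at -0.23 without DMSO replicate 3. Over the stalk and its base, 4 of 4 genes lay below 0 and 0 passed.

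Rpl14 had 1258, 1077 and 1094 in UNC0638, against 1571, 1587 and 1162 in DMSO (log2 difference -0.32, SE 0.13, limma adjusted p = 0.362). Rpl38, known in the mouse for patterning of the axial skeleton, had 6977, 5592 and 5091 in UNC0638, against 6931, 8153 and 6683 in DMSO (log2 difference -0.31, SE 0.13, limma adjusted p = 0.375). Rpl19, which lies near the exit of the peptide tunnel, had 3490.3, 3191 and 3013 in UNC0638, against 4018, 4105 and 3432 in DMSO (log2 difference -0.25, SE 0.099, limma adjusted p = 0.34). In all 3 rows given, UNC0638 replicate 1 reached into the DMSO range. The row of Rpl38 given here was the lowest of its 4 single-gene rows. These ran from -0.31 to -0.042, with a median of -0.11. Of 9 members placed at the peptide exit, 5 had a single-gene row, 3 lay below 0 and 0 passed.

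Rpl9 had 8402, 7930 and 7943 in UNC0638, against 9071, 9025 and 9924 in DMSO (log2 difference -0.21, SE 0.079, limma adjusted p = 0.322). Rpl30 had 128, 138 and 133 in UNC0638, against 158, 142 and 144 in DMSO (log2 difference -0.14, SE 0.078, limma adjusted p = 0.544). These groups were apart, by small steps. Rpl6 was at -0.13, Rpl4 at -0.095 and Rpl41, which encodes a very short basic peptide of the ribosome, at -0.085, each with groups apart and a limma adjusted p of 0.574 to 0.728. Rpl4 was at -0.058 without UNC0638 replicate 2, and Rpl41 at -0.055 without UNC0638 replicate 3.

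Rpl5 and Rpl11 bind 5S ribosomal RNA, and the free particle inhibits Mdm2, the ubiquitin ligase of p53. Rpl5 had 4424, 3929 and 3896 in UNC0638, against 4845, 4314 and 4560.0 in DMSO (log2 difference -0.16, SE 0.088, limma adjusted p = 0.512). Rpl11 was read by 6 rows, each also naming Brf2, with differences of -0.27 to 0.12 and 5 of 6 below 0. Rpl10, which joins the large subunit late in its assembly, was at -0.034 (95% interval -0.23 to 0.16). Rpl22, a non-essential subunit protein deleted in some T-cell leukaemias, was at 0.057 (95% interval -0.14 to 0.25), Rpl26 at 0.0021 (-0.18 to 0.18) and Rpl37a at 0.0019 (-0.23 to 0.23). For these 4 genes the groups overlapped in the rows given. The 3 rows naming Rpl26 with Gm15772 lay lower, at -0.72, -0.20 and -0.18. The 3 rows naming Rpl37a with other genes ran from -0.034 to 0.017.

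Of 5 listed second copies of ribosomal protein genes (Rps27l, Rpl39l, Rpl3l, Rpl10l and Rps4l), 3 lay below 0 and 2 above, and 0 passed. Rpl32l, which was not in that list, was at -0.12 (limma adjusted p = 0.701). Rpl3l, a paralogue of Rpl3 known for expression in heart and skeletal muscle, had intensities of 42.5, 42.4 and 41.5 in UNC0638, against 30.5, 29.6 and 33.7 in DMSO (log2 difference 0.30, SE 0.075, limma adjusted p = 0.132, probe set 10442584). It was the 1 member whose UNC0638 arrays all lay above the DMSO arrays, and the 1 named above as higher before adjustment. All 6 values were below the array medians, and the difference was 0.16 with a pseudocount of 64 and 0.42 with a pseudocount of 1.

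Rpl10l, a copy of Rpl10 known from the testis, had 28.0, 26.6 and 27.0 in UNC0638, against 29.9, 20.8 and 21.4 in DMSO (log2 difference 0.12, limma adjusted p = 0.715). Rpl39l, a testis-enriched copy of Rpl39, was at -0.016 (limma adjusted p = 0.974). Rps4l, a copy of Rps4x, had 53.6, 46.0 and 30.8 in UNC0638, against 50.8, 45.2 and 59.8 in DMSO (log2 difference -0.21, limma adjusted p = 0.657). Single arrays set these values, since Rps4l was at -0.042 without UNC0638 replicate 3, -0.33 without UNC0638 replicate 1 and -0.12 without DMSO replicate 3. Rpl10l was at 0.22, 0.061 and 0.073 without DMSO replicates 1, 2 and 3. These 4 dim copies were the only members with a mean below the median row of the table.

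The 203 rows that name several genes were read in a fit over all 34760 rows. In limma 0 of them passed, against 0.0115% of all rows, and at an unadjusted p under 0.05 there were 13 lower and 3 higher, against 4.56% and 5.89% of all rows. Groups did not overlap in 19 rows on the lower side and 3 on the higher, against 6.4% and 9.25% of all rows. Their differences were below 0 in 170 rows (83.7%), with a median of -0.14, against 45.2% and 0.016 over all rows. The array order was that of the single-gene rows, with medians of 0.083, -0.17 and -0.31 on UNC0638 replicates 1 to 3, against 0.041, -0.031 and -0.0058 on DMSO replicates 1 to 3. Without UNC0638 replicate 3 the median of these rows was -0.055.

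These rows cover members that no single-gene row reads. The 6 rows naming Rpl3, which helps to shape the peptidyl transferase centre, ran from -0.61 to -0.068, all below 0. In one of them, shared with the gene model Gm5879, the intensities were 2655, 2537 and 2456 in UNC0638, against 3211, 3011 and 2954 in DMSO (log2 difference -0.26, SE 0.074, limma adjusted p = 0.301). The 4 rows naming Rpl13a, a subunit gene with snoRNAs in its introns, ran from -0.44 to -0.14. The 2 lowest of them also name Snord34 and Snord32a. The row shared by Rps27 and Rps27rt was at -0.19, and the 2 rows naming Rpl39 were at -0.28 and -0.0045.

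Extremes among these rows were dim or scattered. A row naming Camkv and Rpl21 had 28.2, 52.5 and 69.9 in UNC0638, against 7.59, 28.6 and 10.4 in DMSO (log2 difference 1.07, SE 0.32, limma adjusted p = 0.32), with groups that overlapped. The lowest, shared by Snord68 and Rpl13, had 31.3, 37.3 and 51.1 in UNC0638, against 120, 72.5 and 51.2 in DMSO (log2 difference -0.75, limma adjusted p = 0.401). In Rpl13's own best row the difference was -0.12.

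**Figure D3:**
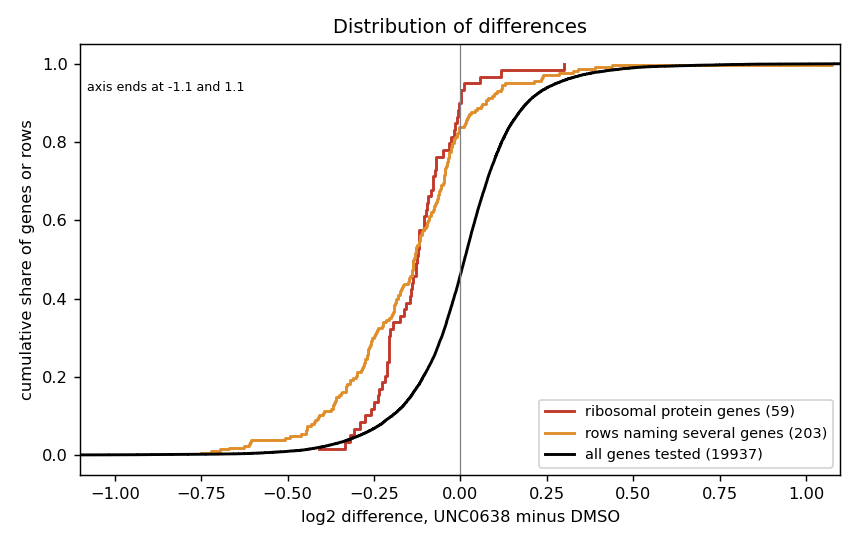
Cumulative share of log2 differences (UNC0638 minus DMSO) for 59 ribosomal protein genes, 203 rows naming several genes and 19937 genes tested, with the horizontal axis ending at -1.1 and 1.1. The curves of both member sets lie left of that of all genes, with medians of -0.12 and -0.14 against 0.012.

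Many single genes had several rows. Processed copies of ribosomal protein genes are common in the mouse genome and nearly identical in sequence, so rows of one symbol can share targets and are not replicates. In 20 genes with at least 4 single-gene rows, 125 rows in all, the spread within a gene was often wider than the difference itself. Rpl19 had 6 rows with mean intensities of 8.25 to 3542 and differences of -0.63 to 0.13. Rpl27a had 9 rows from -0.15 to 0.34, and Rpl21 had 9 rows from -0.50 to 0.27.

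Other genes had all their rows on one side of 0, some of them widely spread. All 5 rows of Rpsa lay between -0.51 and -0.19, all 8 of Rpl9 between -0.54 and -0.077, and all 9 of Rpl13 between -0.35 and -0.030. A narrow range was seen in Rps4x, with 4 rows between -0.068 and -0.0081. Rps29 also had a narrow range, but its 4 rows lay on both sides of 0, between -0.0019 and 0.071. Taking the mean of a gene's rows instead of the brightest gave a member median of -0.15, with 0 past the threshold.

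**Figure D4:**
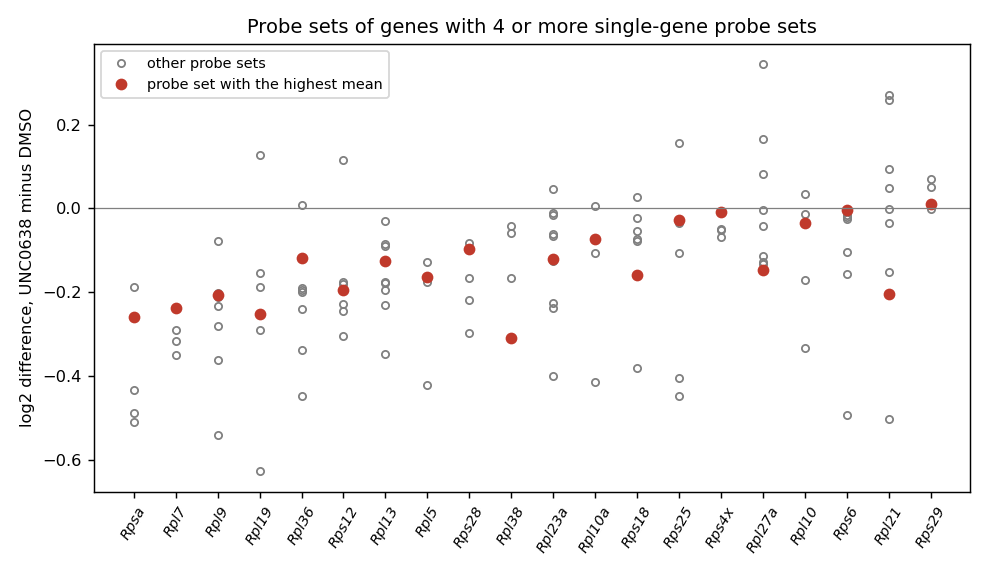
Log2 difference (UNC0638 minus DMSO) of every single-gene probe set in the 20 ribosomal protein genes with at least 4 of them, with the probe set of highest mean filled. Rpsa, Rpl7 and Rpl9 lie below 0 throughout, Rpl21 and Rpl27a lie on both sides.

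The letters CTTTC near the start divide the measured members with a promoter entry. The 12 measured genes with them had a median of -0.13 and all lay below 0. The 35 without them had a median of -0.11 and 30 lay below 0. Genes without CTTTC can still carry a TOP tract, since the runs shown above for Rps6, Rps9 and Rps18 do not hold these letters. Other mRNAs known to carry a TOP tract, among them elongation and initiation factors, had a median of -0.13 over 20 genes, with 19 below 0 and 0 past the threshold. Eif3e, a subunit of initiation factor 3, was at -0.28 (limma adjusted p = 0.36). Their medians on UNC0638 replicates 1 to 3 were -0.11, -0.17 and -0.10, against 0.035, -0.026 and -0.012 on DMSO replicates 1 to 3.

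Genes that act before and around the ribosome are given for comparison, described by counts and medians, and the differences between lists were not tested. Of 41 measured nucleolar factors of ribosome assembly, 2 fell in limma, against 0.301% of all genes (Nolc1 at -0.54 and Gnl3 at -0.49, both with an adjusted p of 0.0365), 40 lay below 0, and the median was -0.37. At an unadjusted limma p under 0.05, 29 of the 41 were lower, against 6.21% of all genes. Of 77 mitochondrial ribosomal proteins, 1 fell (Mrpl12, at -0.56, limma adjusted p = 0.0361), 68 lay below 0, 32 were lower at an unadjusted limma p under 0.05, and the median was -0.22. Their medians on UNC0638 replicate 1, the array on which the cytoplasmic members were at 0.020, were -0.35 and -0.12.

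Chaperones and importers of ribosomal proteins had a median of -0.19 over 12 genes, with 11 below 0 and 0 past the threshold, and the importin Kpnb1 was at -0.37 (limma adjusted p = 0.0926). For mTORC1, LARP1 and S6 kinase genes the median was -0.077 over 15, with Eif4ebp1, a repressor of cap-dependent translation, at -0.38 (limma adjusted p = 0.271). Genes that handle stalled ribosomes had a median of -0.038 over 12, with the deubiquitinase Usp10 at -0.53 (limma adjusted p = 0.0801). For p53 and its targets the median was -0.0078 over 18 genes, 9 of them below 0, with the death receptor Fas at 0.44 (limma adjusted p = 0.128). In each of these 4 lists 0 genes passed. At an unadjusted limma p under 0.05, 5 of the 12 chaperones and importers, 1 of the 15 mTORC1 genes (6.67%), 2 of the 12 stalling genes and 1 of the 18 p53 genes were lower, against 6.21% of all genes. On the higher side there were 4 p53 genes, against 6.47% of all genes, and 0 in the other lists. Of the 9 ribosomal protein symbols and paralogues outside the naming rule, 3 had a single-gene row, and Fau was at -0.076, Rps3a1 at -0.099 and Rpl7l1 at -0.19.

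**Figure D5:**
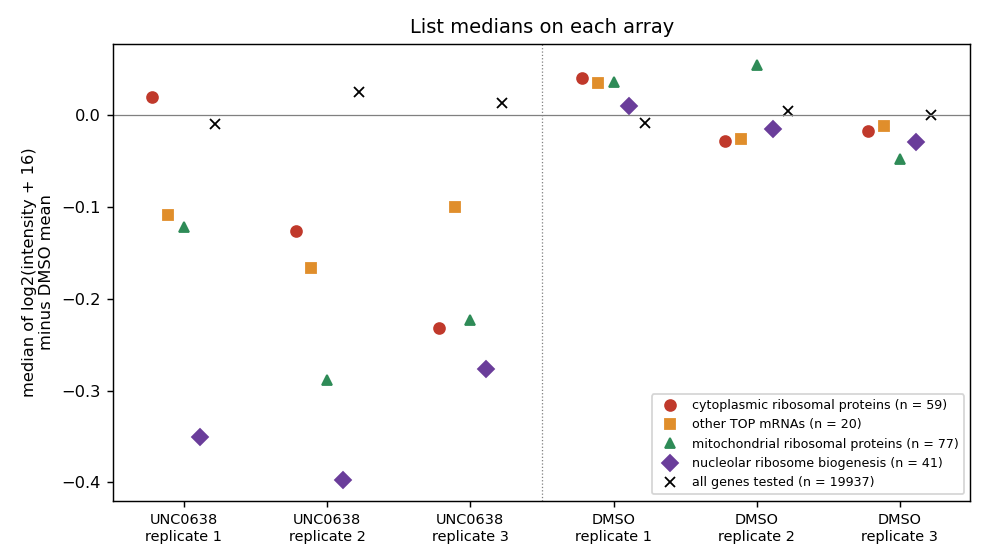
Median of log2(intensity + 16) minus the DMSO mean on each array, for 5 gene sets. The cytoplasmic ribosomal proteins are at 0.020 on UNC0638 replicate 1 and at -0.23 on replicate 3, while nucleolar factors are between -0.40 and -0.28 on all 3 UNC0638 arrays.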

How the data were processed

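The deposited table holds processed array intensities, 1 per probe set and sample, on a linear scale. Biotinylated cRNA had been made from 6 ug of total RNA, per the labels' protocols. How the authors summarised and normalized these intensities, and with which software, is not given in the sources used here. Such steps can shrink or shift differences. Of 34760 rows, 21640 carry 1 gene symbol, 1321 several and 11799 none. Symbols were looked up by Entrez number in a GRCm38.p6 gene table (21553 found, 0 changed). For each gene the probe set with the highest mean was kept (954 genes had more than 1). Values were transformed as log2(value + 16), and the UNC0638 samples were set against the DMSO samples with lmFit and eBayes of limma 3.58.1 (R 4.3.3, group as the only term, Benjamini-Hochberg over 19937 genes, threshold 0.05). Rows naming several genes, and further rows of a gene, come from a fit over all rows. The procedure was tested on simulated data. Levels of different probe sets are not comparable.

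The members, the lists and the rules were chosen with earlier results of these data known. Named members are the 8 lowest differences, the 6 above 0 and a set of genes chosen by role, and those with groups apart were added after their values were seen. Outside the members, genes past the threshold or the largest change of a list are named. Alternatives were 3 scalings, 2 pseudocounts, removal of the dimmest 40% of genes, other uses of probe sets, another prior, a replicate block, array weights, a threshold of 0.01 and each array left out. Sequences and figures were handled in Python 3.11.15 with matplotlib 3.10.9.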

Additional observations from a re-analysis of the deposited data

How the results depend on the processing

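In the 19 alternatives to the gene fit, 0 of the ribosomal protein genes passed in either direction, and the member median stayed below 0, between -0.19 and -0.062 with 1 array left out and at -0.12, -0.10 and -0.17 with quantile normalization, cyclic loess and median centring. Members with groups apart on the lower side numbered 12 with quantile normalization (20.3%, against 9.42% of all genes) and 13 with median centring (22.03%, against 11.96%). With cyclic loess they numbered 6 (10.2%, against 8.65%). They numbered 11 with the mean of a gene's probe sets (18.6%, against 7.49%) and 9 to 33 with 1 array left out. Among the fits with 1 array left out, the highest share was 55.9%, without UNC0638 replicate 1, against 11.3% of all genes. The lowest of these shares, 15.3%, stood against 11.95% to 13.1%. On the higher side they numbered 0 with the filter on dim genes, which removes Rpl3l, and 1 to 2 with 1 array left out. All genes past the threshold were 134, against 192 with the filter on dim genes, 182 with a trended and robust prior, 49 with a pseudocount of 64, 4 with all probe sets in 1 fit, 18 at the threshold of 0.01 and 10 to 69 with 1 array left out. With the replicate number as a block they were 73, and 0 members passed. Same-numbered samples had residual correlations of -0.066, 0.11 and 0.017, so the numbers were not taken as pairs. Of 30 named members 8 changed sign somewhere, all of them within 0.10 of 0 in the fit reported. Quantile normalization gave -0.0079 for Rps29 and -0.016 for Rpl37a. Cyclic loess gave 0.027 for Rps6 and 0.023 for Rps4x. Median centring gave -0.035 for Rps29, -0.044 for Rpl26 and -0.044 for Rpl37a. With 1 array left out, Rps29 ran from -0.050 to 0.044, Rpl26 from -0.032 to 0.043, Rpl37a from -0.10 to 0.056, Rps6 from -0.074 to 0.045, Rps4x from -0.079 to 0.061, Rpl10 from -0.086 to 0.015, Rplp1 from -0.16 to 0.0015 and Rpl39l from -0.070 to 0.065. Rows naming several genes had 0 calls in every alternative run on them, with a median of -0.24 to -0.055 with 1 array left out. The cause of these changes was not tested, apart from the fewer arrays or genes.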
